A study of Homo sapiens with 12 samples.

Results

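The enzymes described here make, recycle or remove the deoxynucleotides from which DNA is built: the ribonucleotide reductase subunits *RRM1*, *RRM2* and *RRM2B*, the thymidylate enzymes *TYMS*, *DUT* and *TK1*, the deoxycytidine kinase *DCK*, and the hydrolases *DCTPP1* and *SAMHD1*. They were chosen by gene symbol for their function, and all 9 were found among the 60612 named rows of the count table. RNA was sequenced from ZR-75-1, an oestrogen receptor-positive human breast cancer cell line, in 4 groups of 3 replicates, sgControl and *RB1*-knockout cells each with DMSO or abemaciclib. sgControl cells carried a non-targeting guide RNA. Knockout cells had lost *RB1*, which encodes the retinoblastoma protein Rb, after CRISPR–Cas9 editing, and the study's methods describe knockout lines grown from single sorted cells. How many clones stand behind these libraries is not given in the sources used here, so the loss of *RB1* and the history of a clone cannot be told apart. Abemaciclib, which blocks the Rb kinases CDK4 and CDK6, was given at 500 nM for 5 days, and the other groups received an equal volume of the solvent DMSO. All 12 libraries share the cell line and the medium, which contained serum.

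Ribonucleotide reductase converts ribonucleoside diphosphates to deoxyribonucleoside diphosphates, with *RRM1* as the large catalytic subunit and either *RRM2* or *RRM2B* as the small subunit that holds the radical. *RRM2* is the small subunit of S phase, whereas *RRM2B* (p53R2) serves cells that are not replicating and is a known p53 target. Thymidylate synthase (*TYMS*) methylates dUMP to dTMP, *DUT* supplies that dUMP by hydrolysing dUTP, *TK1* and *DCK* phosphorylate salvaged deoxynucleosides, *DCTPP1* removes dCTP and its modified forms, and *SAMHD1* cleaves dNTPs back to deoxynucleosides. Rb in its unphosphorylated form holds E2F transcription factors in check, and several of these genes are textbook E2F targets.

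Libraries held 39907318 to 81636393 counts. Depth was higher in the sgControl libraries than in the knockout libraries, and counts were therefore compared after division by a size factor per library (normalized counts). *RB1* had 39.6 to 63.5 normalized counts in the 6 knockout libraries and 2252.3 to 4824.6 in the 6 sgControl libraries, so no library went against its label. The luminal markers *ESR1*, *GATA3*, *FOXA1*, *KRT8*, *KRT19* and *EPCAM* were abundant in every library, the lowest value being 6156.9 for *ESR1*. Their levels also moved with the groups: in sgControl cells 4 rose and 2 fell in abemaciclib. Under the drug 4 were lower in the knockout, *ESR1* the most (−1.51 ± 0.10 on the log2 scale), *KRT8* was higher (1.19 ± 0.10) and *EPCAM* did not pass the test. *PTPRC*, *PECAM1*, *KRT5* and *KRT14*, which mark immune, endothelial and basal cells, did not exceed 5.3 normalized counts in any library. The remaining markers of other cell types, *COL1A1* and *ACTA2*, were detected throughout, at 1878.5 to 3031.4 and 127.5 to 898.0 normalized counts. *ACTA2* (smooth muscle actin) moved with the groups: in abemaciclib it fell by 2.08 ± 0.13 on the log2 scale in sgControl cells (485.7 to 691.7 against 127.5 to 148.9 normalized counts) and was at −0.03 ± 0.12 in knockout cells, and it was 6.06-fold higher in knockout than in sgControl cells under the drug. *COL1A1* rose in abemaciclib in both genotypes, by 0.37 ± 0.07 and 0.43 ± 0.07. The part of these genes in the results was not tested.

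Promoter sequences are shown for the 3 enzymes with the deepest falls under abemaciclib in sgControl cells (*RRM2*, *TYMS* and *TK1*) and for the most downstream *DUT* start, 768 bases from the canonical one, whose window held the E2F words. They are the 250 bases before a RefSeq start site (GRCh38.p14), printed 5′ to 3′ on the strand of the gene. Capitals mark words found by a search of both strands: the CCAAT box (CCAAT, or ATTGG when on the reverse strand), the cell cycle homology region or CHR (TTTGAA or TTTAAA, printed as TTCAAA for the former on the reverse strand), and 4 E2F words (TTTGGCGC, TTTCCCGC, TTTGCCGC and TTTCGCGC, the second printed as GCGGGAAA on the reverse strand). No 2 marked words overlap in these windows.
*RRM2*, 2:10122489-10122738, plus strand: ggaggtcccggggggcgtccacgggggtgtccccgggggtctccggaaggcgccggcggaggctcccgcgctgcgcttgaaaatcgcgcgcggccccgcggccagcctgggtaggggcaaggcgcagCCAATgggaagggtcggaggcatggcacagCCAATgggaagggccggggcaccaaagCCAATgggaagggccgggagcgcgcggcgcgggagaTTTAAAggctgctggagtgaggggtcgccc
*TYMS*, 18:657403-657652, plus strand: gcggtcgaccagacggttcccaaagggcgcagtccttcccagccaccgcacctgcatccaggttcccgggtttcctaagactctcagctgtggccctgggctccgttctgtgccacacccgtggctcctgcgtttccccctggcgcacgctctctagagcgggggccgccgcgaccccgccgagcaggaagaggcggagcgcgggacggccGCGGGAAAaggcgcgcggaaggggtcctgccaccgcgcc
*TK1*, 17:78187053-78187302, minus strand: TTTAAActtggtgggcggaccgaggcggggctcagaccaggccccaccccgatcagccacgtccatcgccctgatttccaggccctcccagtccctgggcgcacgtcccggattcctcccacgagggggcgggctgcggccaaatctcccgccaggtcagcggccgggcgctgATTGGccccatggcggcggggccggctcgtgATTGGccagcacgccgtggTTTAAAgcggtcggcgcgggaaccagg
*DUT*, 15:48331947-48332196, plus strand: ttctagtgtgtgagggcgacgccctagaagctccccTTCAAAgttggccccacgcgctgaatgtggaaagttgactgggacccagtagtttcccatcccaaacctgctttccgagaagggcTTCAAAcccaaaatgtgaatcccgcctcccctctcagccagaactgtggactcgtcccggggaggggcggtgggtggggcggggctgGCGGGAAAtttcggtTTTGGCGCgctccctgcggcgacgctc

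The *RRM2* window held 3 CCAAT boxes, starting 123, 93 and 66 bases before the start site, and a TTTAAA word 30 bases before it. At least 3 CCAAT boxes were present in 2.93% of the 35116 promoter windows of the same length. The *TK1* window held 2 CCAAT boxes on the reverse strand, 77 and 46 bases before the start, and TTTAAA words 250 and 27 bases before it. The *TYMS* window held 1 word, an E2F word 39 bases before the start. The *DUT* window held 2 E2F words, at 42 and 27 bases, and 2 CHR words on the reverse strand, at 214 and 129 bases. Any of the 4 E2F words occurred in 2.79% of all windows, a CCAAT box in 32.0% and a CHR word in 21.9%, while 52.3% held none. The *DUT* window is shown because it held E2F words, so the E2F share is no yardstick for it. Of the windows not printed, that of *SAMHD1* held 2 CCAAT boxes, at 49 and 38 bases, and that of *RRM1* held a CCAAT box at 28 bases and a CHR word at 199 bases. The other *RRM2* window held a CCAAT box at 249 bases, and the other *TK1* window a TTTAAA word at 98 bases. None of these words was found in the *DCK* window, in the other *DUT* windows or in the *DCTPP1* window, whose start site lies 230 bases downstream of the canonical start. *RRM2B* had no entry among the promoter sequences used. These matches describe letters in a window and say nothing of binding.

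A first comparison asked how the supply enzymes respond to CDK4/6 inhibition when Rb is present. With sgControl, 7 of the 9 enzymes fell in abemaciclib (*RRM2*, *TYMS*, *TK1*, *DUT*, *RRM1*, *DCK* and *SAMHD1*), *RRM2B* rose, and *DCTPP1* did not pass the test. Over all 23512 genes tested, 23.9% were called lower and 24.1% higher at an adjusted p-value under 0.05. The median log2 fold change was −1.63 over the 9 enzymes and 0.01 over all genes tested. In bulk RNA a lower level in each cell and a smaller share of cells that express the gene cannot be told apart. The study describes its RNA-seq replicates as independent biological ones, and the p-values measure the spread between these samples.

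**Figure D1:**
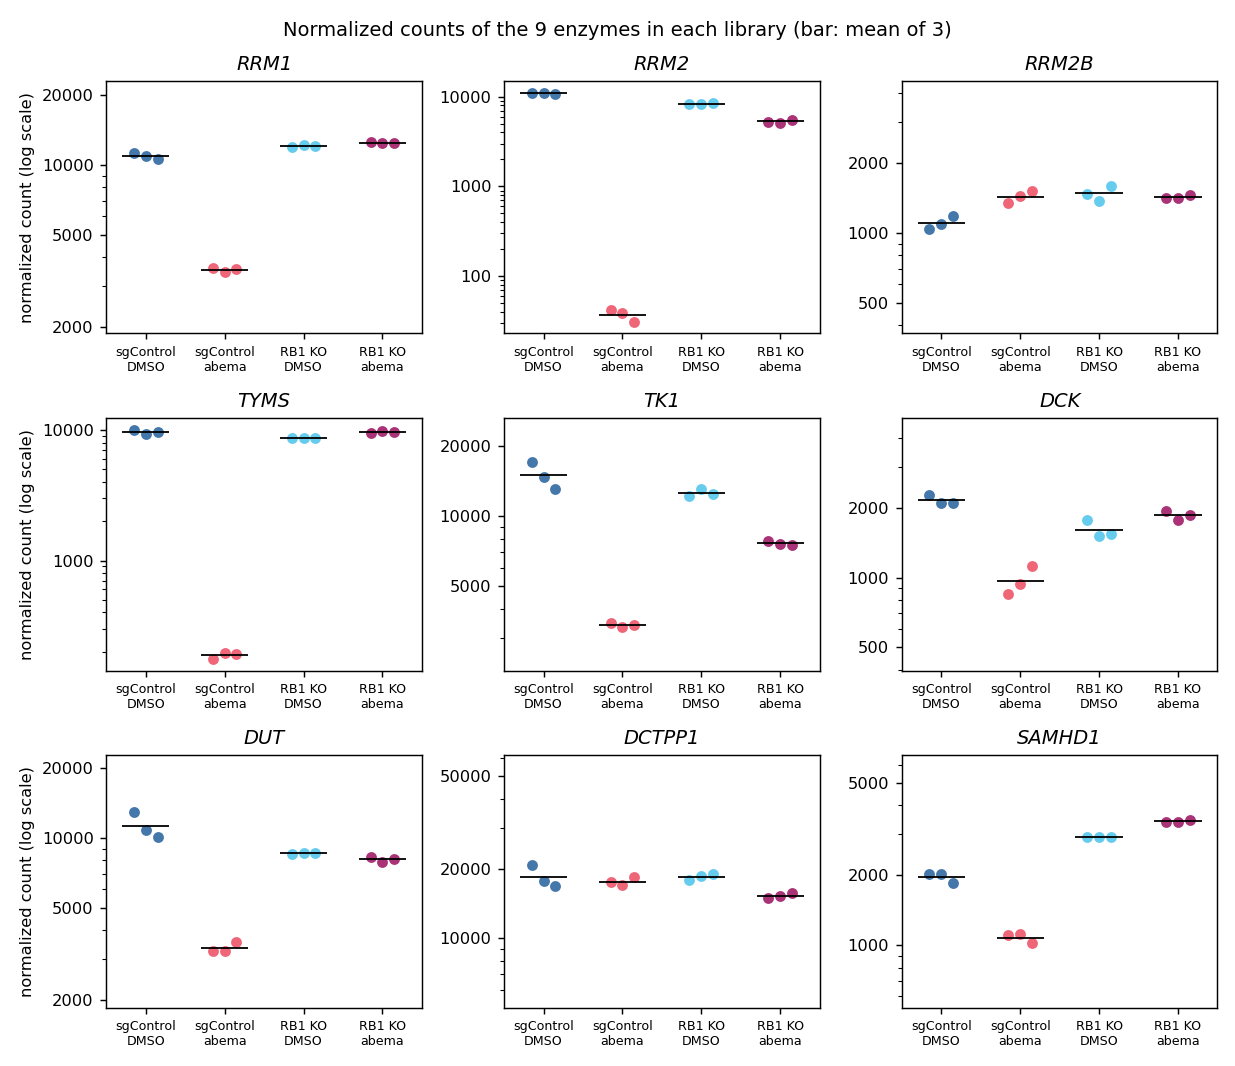
Normalized counts (log scale, with a different range in each panel) of the 9 enzymes in each of the 12 libraries; points are libraries, bars the mean of 3, abema is abemaciclib and KO is knockout. In sgControl cells *RRM2* drops from at least 10823.9 in DMSO to at most 42.0 in abemaciclib and *TYMS* from at least 9241.1 to at most 195.7, whereas in knockout cells they stay at or above 5123.4 and 8657.9.

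*RRM2* (chromosome 2, positions 10120698 to 10211725, plus strand, GRCh38) had the deepest fall. Its normalized counts were 11138.2, 10908.6 and 10823.9 in sgControl cells with DMSO and 42.0, 39.0 and 30.8 in abemaciclib, the latter from 39, 44 and 35 raw counts. The 3 treated libraries thus lay far below all others, at 0.338% of the level in DMSO, a 296-fold decrease (log2 fold change −8.21 ± 0.14, SE). By this log2 fold change it was number 3 from the lowest among 11885 genes with a mean of at least 100 normalized counts. In *RB1*-knockout cells the counts were 8377.6, 8191.6 and 8468.1 in DMSO and 5288.6, 5123.4 and 5477.1 in abemaciclib. The groups did not overlap, and *RRM2* fell to 63.5% of its level in DMSO (log2 fold change −0.66 ± 0.05, adjusted p = 1.92e-41). The responses differed by 7.55 ± 0.15 on the log2 scale (interaction), and this adjusted p, like that of the fall in sgControl cells, was too small to be represented.

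*RRM1* (chromosome 11, positions 4094707 to 4138932, plus strand), the partner of either small subunit, fell far less. It had 11275.0, 10906.9 and 10651.3 normalized counts in sgControl cells with DMSO and 3600.5, 3443.2 and 3573.9 in abemaciclib, a 3.09-fold decrease (log2 fold change −1.63 ± 0.04). Knockout cells had 11968.1, 12225.2 and 12092.2 in DMSO and 12552.3, 12396.8 and 12440.0 in abemaciclib. The treated knockout libraries all lay above the untreated ones, but the difference was small and did not pass the test (log2 fold change 0.04, 95% interval −0.03 to 0.12, adjusted p = 0.456). The interaction was 1.67 ± 0.06 (adjusted p = 5.78e-190).

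*RRM2B* (chromosome 8, positions 102204502 to 102238961, minus strand) was the only one of the 9 enzymes called higher in sgControl cells. Its normalized counts were 1040.7, 1090.2 and 1184.3 in DMSO and 1347.1, 1440.8 and 1515.2 in abemaciclib, without overlap, a 1.3-fold increase (log2 fold change 0.38 ± 0.08, adjusted p = 6.38e-06). In knockout cells the values were 1474.1, 1369.5 and 1600.6 in DMSO and 1420.1, 1409.8 and 1464.6 in abemaciclib. These overlapped, and the log2 fold change was −0.05 (95% interval −0.20 to 0.11, adjusted p = 0.706). The interaction was −0.42 ± 0.11 (adjusted p = 0.000541), which did not pass when counts were scaled by library totals (−0.29, adjusted p = 0.103).

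*RRM2B* is known as a p53 target, and a list of 10 other p53 target genes was read beside it. In sgControl cells 2 of them rose in abemaciclib (*TP53INP1* by 1.83 ± 0.17 and *MDM2* by 0.18 ± 0.08 on the log2 scale) and 6 fell, *CDKN1A*, which encodes the CDK inhibitor p21, the most (−2.12 ± 0.06). In knockout cells none rose and 5 fell (*CDKN1A*, *FDXR*, *SESN1*, *PHLDA3* and *XPC*), by 0.18 to 0.35. The direction of *RRM2B* in sgControl cells under the drug was thus shared by 2 of the 10 genes. Over all genes tested there, 24.1% were called higher and 23.9% lower. Between genotypes in DMSO, *RRM2B* was higher in the knockout (0.42 ± 0.08). There 3 of the 10 were higher (*CDKN1A*, *DDB2* and *PHLDA3*) and 7 did not pass, beside 16.2% higher and 15.2% lower of all genes. Between genotypes in abemaciclib 7 were higher and 1 lower, beside 27.5% and 26.4%, and *RRM2B* did not pass the test. The part of p53 in these levels was not tested.

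The proportions of the subunits changed mainly with *RRM2*, which fell 296-fold in sgControl cells where *RRM2B* rose 1.3-fold. Counts per kilobase of canonical transcript put *RRM2* at 0.953, 0.965 and 0.98 times *RRM1* in sgControl cells with DMSO and at 0.0113, 0.0109 and 0.00832 times in abemaciclib. In knockout cells the ratio was 0.666 ± 0.0168 (SD, n = 3) in DMSO and 0.41 ± 0.0134 in abemaciclib. *RRM2B* stood at 0.0689 ± 0.00548 times *RRM2* in untreated sgControl cells and at 21.9, 25.2 and 33.5 times in treated ones. The order of the small subunits was therefore inverted in the 3 treated sgControl libraries and in none of the other 9, where *RRM2* exceeded *RRM2B* in each. Within knockout cells *RRM2B* went from 0.121 ± 0.0075 to 0.185 ± 0.00287 times *RRM2*. The level of a ratio depends on the length used, and it assumes counts that scale with length. With all annotated exons of each gene, *RRM2* was 0.463 ± 0.00657 times *RRM1* in untreated sgControl cells. *RRM2B* was then 66.9 ± 14.9 times *RRM2* in treated sgControl cells, while the direction of each change was the same.

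**Figure D2:**
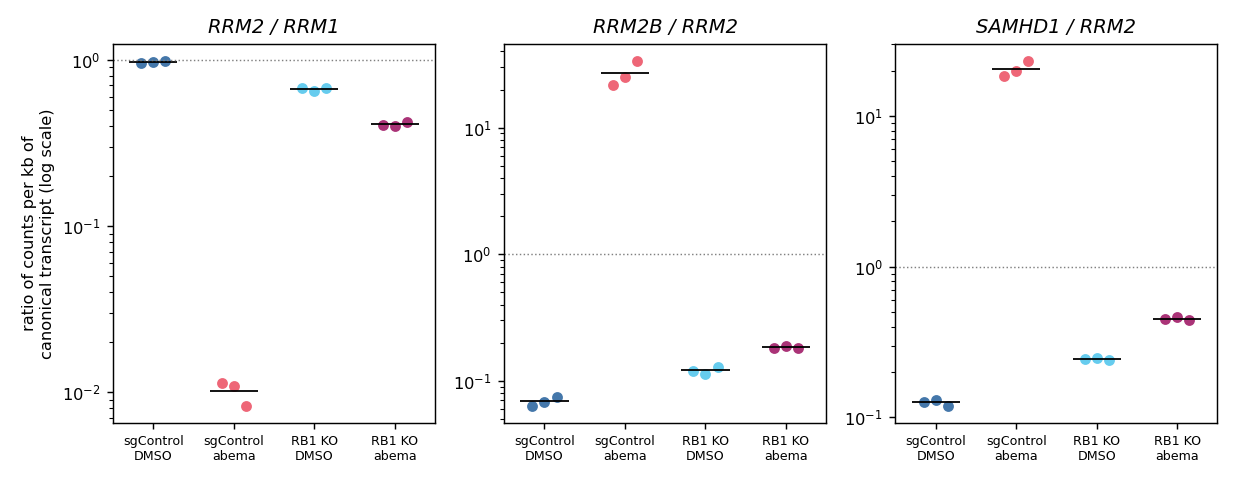
Ratios of counts per kilobase of canonical transcript (log scale) within each library for *RRM2* to *RRM1*, *RRM2B* to *RRM2* and *SAMHD1* to *RRM2*; points are libraries, bars the mean of 3, and the dotted line marks equal levels. The sgControl libraries in abemaciclib stand apart in all 3 panels, with *RRM2B* 21.9 to 33.5 times and *SAMHD1* 18.4 to 23.1 times *RRM2*.

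*TYMS* (chromosome 18, positions 657653 to 673578, plus strand), the only de novo source of dTMP, had the other deep fall. It had 10055.5, 9241.1 and 9606.8 normalized counts in sgControl cells with DMSO and 175.7, 195.7 and 193.8 in abemaciclib. That is 1.96% of the untreated level (log2 fold change −5.67 ± 0.08), number 27 from the lowest of the 11885 genes. In knockout cells it had 8728.8, 8750.2 and 8657.9 in DMSO and 9509.3, 9784.6 and 9706.5 in abemaciclib, a rise of 0.15 ± 0.05 (adjusted p = 0.00777) with no overlap. This call did not pass without knockout DMSO replicate 3 (adjusted p = 0.0573) or without knockout abemaciclib replicate 2 (0.0626) or 3 (0.0526). The interaction was 5.82 ± 0.09, with an adjusted p too small to be represented.

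*TYMS* lies head to head with the antisense gene *TYMSOS* and tail to tail with *ENOSF1* on the opposite strand, sharing 193 and 967 exon bases with them. *TYMSOS* had 141, 129 and 190 raw counts in untreated and 6, 3 and 7 in treated sgControl libraries, and 112 to 121 in the knockout libraries. *ENOSF1* had between 983 and 2025 raw counts in every library, with no such drop. Whether counting used strand is not stated, so reads of *TYMS* and of its antisense partners cannot be told apart.

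*DUT* (chromosome 15, positions 48331011 to 48343373, plus strand), which makes the substrate of *TYMS* and keeps uracil out of DNA, had 12964.6, 10837.3 and 10066.1 normalized counts in sgControl cells in DMSO. In abemaciclib it had 3249.2, 3251.9 and 3549.2, a 3.37-fold decrease (log2 fold change −1.75 ± 0.08, adjusted p = 1.42e-99). Knockout cells had 8504.7, 8638.9 and 8579.5 in DMSO and 8263.6, 7894.6 and 8116.8 in abemaciclib. The treated libraries were all slightly lower, and the difference did not pass the test (−0.08, 95% interval −0.24 to 0.08, adjusted p = 0.493). The interaction was 1.67 ± 0.12 (adjusted p = 1.78e-45).

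*TK1* (chromosome 17, positions 78174091 to 78187233, minus strand), the cytosolic thymidine kinase that salvages thymidine, had 17144.3, 14834.2 and 13072.9 normalized counts in sgControl cells in DMSO. In abemaciclib it had 3463.6, 3338.7 and 3392.4, a 4.42-fold decrease (log2 fold change −2.14 ± 0.08, adjusted p = 2.88e-147). In knockout cells it still fell, from 12220.8, 13136.4 and 12434.4 to 7841.2, 7627.2 and 7547.9, which is 60.9% of the untreated level (−0.72 ± 0.08, adjusted p = 1.62e-16). *TK1* and *RRM2* had the deepest falls of the 9 enzymes without *RB1*, as numbers 144 and 192 from the lowest of the 11885 genes. The interaction was 1.43 ± 0.12 (adjusted p = 3.08e-33).

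*DCK* (chromosome 4, positions 70992538 to 71030914, plus strand), which phosphorylates deoxycytidine and activates several nucleoside drugs, had 2279.8, 2087.1 and 2085.8 normalized counts in sgControl cells with DMSO and 847.0, 935.2 and 1124.1 in abemaciclib. The decrease was 2.22-fold (log2 fold change −1.15 ± 0.10, adjusted p = 1.6e-30). In knockout cells the values were 1762.4, 1513.8 and 1537.0 in DMSO and 1932.0, 1776.2 and 1867.1 in abemaciclib. They did not overlap, yet the difference did not pass the test over all groups (0.21 ± 0.10, adjusted p = 0.0872). It passed when only the 6 knockout libraries were fitted (adjusted p = 0.00849), and also without sgControl DMSO replicate 1 (0.0375), sgControl abemaciclib replicate 3 (0.0279) or knockout DMSO replicate 1 (0.0332). The interaction was 1.36 ± 0.14 (adjusted p = 1.68e-21). *DCK* shares 199 exon bases with *MOB1B* on the same strand.

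The hydrolases did not move together. *SAMHD1* (chromosome 20, positions 36890229 to 36951893, minus strand) had 2023.8, 2023.6 and 1850.8 normalized counts in sgControl cells with DMSO and 1103.5, 1112.3 and 1015.7 in abemaciclib, a 1.82-fold decrease (log2 fold change −0.87 ± 0.06, adjusted p = 5.81e-46). Knockout cells had 2919.6, 2916.4 and 2919.3 in DMSO and 3384.9, 3392.4 and 3473.9 in abemaciclib. There it rose by 0.23 ± 0.06 (adjusted p = 0.000435), so that the response had opposite signs in the 2 genotypes (interaction 1.09 ± 0.08, adjusted p = 1.49e-38). Because *RRM2* fell much further, *SAMHD1* went from 0.126 ± 0.00527 to 20.5 ± 2.38 times *RRM2* per kilobase in sgControl cells, against 0.245 ± 0.00402 to 0.452 ± 0.0103 times in knockout cells.

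*DCTPP1* (chromosome 16, positions 30423615 to 30430030, minus strand) was the enzyme that moved least in sgControl cells. It had 20667.8, 17674.0 and 16852.0 normalized counts in sgControl cells with DMSO and 17500.2, 16911.1 and 18311.7 in abemaciclib. The groups overlapped (log2 fold change −0.07, 95% interval −0.21 to 0.07, adjusted p = 0.491), although the difference passed with scaling by library totals (−0.19, adjusted p = 0.00342). In knockout cells it fell from 17915.2, 18498.6 and 19032.4 to 14965.6, 15210.2 and 15633.4, without overlap (−0.28 ± 0.07, adjusted p = 0.000847). The difference between the responses was −0.21 (95% interval −0.41 to −0.01) and did not pass the adjusted threshold (adjusted p = 0.0861). Without sgControl DMSO replicate 1, the highest of its group, it did (−0.30, adjusted p = 1.19e-05). *DCTPP1* shares 645 exon bases with *ZNF771* on the opposite strand, which had 662 to 1726 raw counts.

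Without *RB1*, the enzymes moved in both directions. In abemaciclib 2 enzymes rose (*SAMHD1* and *TYMS*), 3 fell (*TK1*, *RRM2* and *DCTPP1*) and 4 did not pass the test (*RRM1*, *RRM2B*, *DCK* and *DUT*). Over all 18506 genes tested in knockout cells, 15.0% were called higher and 15.1% lower, and the median log2 fold change was −0.05 for the 9 enzymes and 0.02 for all genes. The test of the difference between genotypes called 7 enzymes higher and *RRM2B* lower in the knockout response, with *DCTPP1* not passing, against 21.0% higher and 20.2% lower of 21008 genes. The median difference was 1.43 for the 9 enzymes and 0.03 for all genes.

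**Figure D3:**
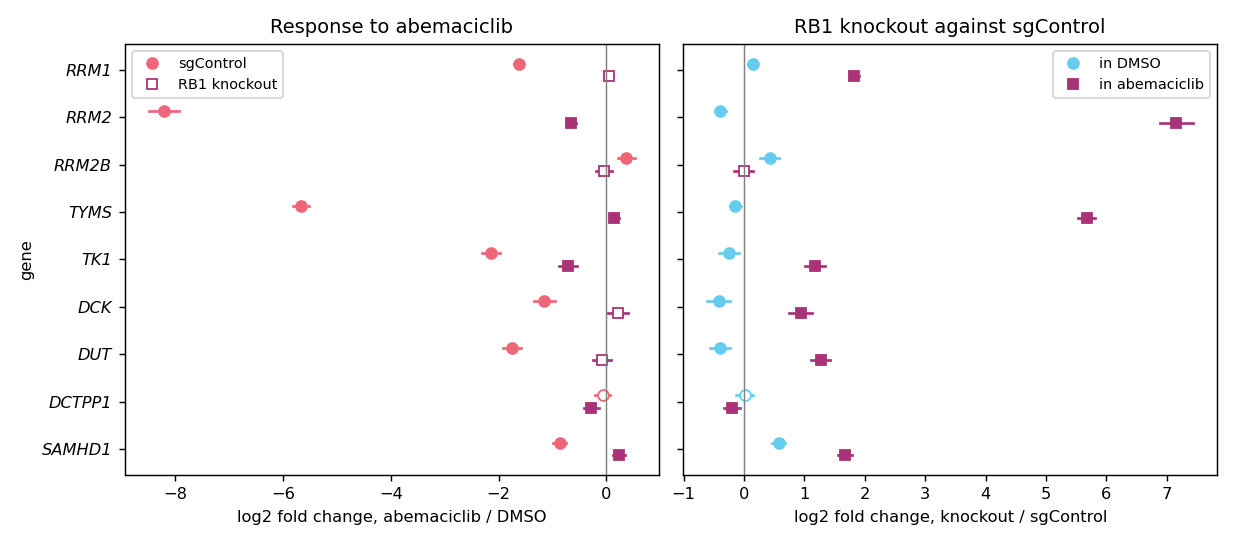
Log2 fold changes of the 9 enzymes with 95% intervals, for abemaciclib against DMSO in each genotype (left) and for *RB1* knockout against sgControl in each treatment (right); filled symbols passed an adjusted p-value under 0.05 and open symbols did not. *RRM2* and *TYMS* lie beyond 1 from 0 only in the contrasts that contain treated sgControl cells, and the point estimates of *DCTPP1* and *RRM2B* stay within 0.5 of 0.

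The comparison of genotypes in DMSO asked whether these enzymes differ without the drug. Loss of *RB1* and the history of a clone cannot be told apart here. The differences were small, with a median of −0.15 on the log2 scale for the 9 enzymes and −0.0 for all genes tested. *SAMHD1* (0.57 ± 0.06, adjusted p = 1.18e-21), *RRM2B* (0.42 ± 0.08, adjusted p = 1.24e-06) and *RRM1* (0.14 ± 0.04, adjusted p = 0.00126) were higher in knockout cells. *DCK* (−0.42 ± 0.10), *DUT* (−0.40 ± 0.08), *RRM2* (−0.39 ± 0.05), *TK1* (−0.25 ± 0.08) and *TYMS* (−0.15 ± 0.05) were lower, with adjusted p-values from 7.96e-16 for *RRM2* to 0.00939 for *TYMS*. Of 19757 genes tested, 16.2% were called higher and 15.2% lower. For *DCTPP1* the difference was 0.01 (95% interval −0.13 to 0.15, adjusted p = 0.962).

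Several of these small differences rested on the model or on 1 library. With only the 6 untreated libraries fitted, *RRM1* (adjusted p = 0.0668) and *TYMS* (0.0799) did not pass. *TYMS* also failed without knockout DMSO replicate 1 (0.0513) or 3 (0.0634), and *TK1*, whose sgControl and knockout libraries overlapped, failed without knockout DMSO replicate 1 (0.0549). *SAMHD1*, at 2916.4 to 2919.6 normalized counts in the knockout and at most 2023.8 in sgControl cells, was 1.49-fold higher in the knockout, the largest of the 9 differences, and passed in every alternative run.

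In abemaciclib the genotypes differed far more. Here 7 enzymes were higher in knockout cells, with *RRM2* at 143-fold (log2 fold change 7.16 ± 0.14) and *TYMS* at 51.1-fold (5.68 ± 0.08). The others were *RRM1* (1.82 ± 0.04), *SAMHD1* (1.67 ± 0.06), *DUT* (1.27 ± 0.08), *TK1* (1.18 ± 0.08) and *DCK* (0.94 ± 0.10). Of 22260 genes, 27.5% were called higher and 26.4% lower, and the median was 1.27 for the 9 enzymes and 0.02 for all genes. *DCTPP1* was lower (−0.20 ± 0.07, adjusted p = 0.0102), but not with scaling by library totals (−0.09, adjusted p = 0.217), without sgControl abemaciclib replicate 3 (0.0622) or without knockout abemaciclib replicate 1 (0.0523). No difference was detected for *RRM2B*, with a log2 fold change of −0.00 (95% interval −0.16 to 0.15, adjusted p = 0.974).

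Levels of different enzymes were compared only per length, as TPM (counts per kilobase, scaled to the same sum in every library) computed from the canonical transcript. *DCTPP1* was the most abundant in every group, at 570.0 ± 12.9 TPM (SD, n = 3) in untreated and 490.0 ± 26.6 TPM in treated sgControl cells. *TK1* followed at 383.0 ± 7.71 and 78.2 ± 2.38 TPM. *RRM2B* (8.59 ± 1.56 TPM) and *SAMHD1* (15.6 ± 1.28 TPM) were the lowest in untreated sgControl cells. *TYMS* (220.0 ± 21.8 TPM) lay above *DUT* (193.0 ± 3.24 TPM) by little more than its spread there. *RRM1* and *RRM2* stood at 128.0 ± 11.5 and 124.0 ± 12.8 TPM, with *RRM2* the lower within each library, and at 171.0 ± 13.9 and 79.1 ± 7.57 TPM by summed exon length. *DCK* stood at 31.6 ± 2.37 TPM.

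In abemaciclib the order changed within sgControl cells: *RRM2*, at 0.376 ± 0.0533 TPM, dropped from place 6 to place 9, and *TYMS*, at 3.85 ± 0.404 TPM, from place 3 to place 8. *RRM2B* (9.91 ± 0.96 TPM) moved from place 9 to place 6, and *SAMHD1* (7.63 ± 0.515 TPM) from place 8 to place 7. In treated knockout cells *TYMS* (215.0 ± 11.6 TPM) lay above *TK1* (192.0 ± 4.75 TPM), and *RRM2* was at 58.3 ± 2.73 TPM. With the summed exon length in place of the canonical transcript, that order was turned (*TK1* 258.0 ± 9.01 and *TYMS* 248.0 ± 16.4 TPM), and *RRM2B* and *SAMHD1* exchanged places 8 and 9 in untreated cells. The labels name a whole-transcript library kit, whereas a 3′ kit appears in the general methods of the study, and with the latter counts would not scale with length.

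The other genes of nucleotide supply were read from 7 lists, 58 genes in all. In sgControl cells 40 of them fell in abemaciclib and 9 rose, with a median log2 fold change of −0.40. Over all genes tested there, 23.9% were called lower and 24.1% higher. In knockout cells 17 fell and 9 rose, with a median of −0.11, beside 15.1% and 15.0% of all genes. The responses differed between the genotypes for 34 genes, 27 higher and 7 lower in knockout cells, with a median of 0.23. For all genes these shares were 21.0% and 20.2%. Between genotypes in DMSO, 14 were higher and 19 lower in knockout cells, beside 16.2% and 15.2% of all genes. In abemaciclib 29 were higher and 17 lower, beside 27.5% and 26.4%. The same shares stand beside the counts of the lists below.

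Purine synthesis de novo fell moderately. Of its 11 genes, 10 fell in sgControl cells, from *ADSS2* at −0.26 ± 0.07 to *GMPS*, the last step to GMP, at −0.94 ± 0.05. *ADSS1*, an adenylosuccinate synthase isoform, rose by 1.74 ± 0.12. In knockout cells *PFAS*, *IMPDH1* and *GART* fell by 0.30 to 0.44 and *ADSS1* rose by 0.35 ± 0.13. The genotypes differed in the responses of *GMPS* (0.93 ± 0.07), *PAICS* (0.63 ± 0.05), *ATIC* (0.34 ± 0.11) and *ADSS1* (−1.39 ± 0.18), while 7 did not pass.

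Of the 5 genes of pyrimidine synthesis, *CTPS1*, *DHODH*, *UMPS* and *CAD* fell in sgControl cells and *CTPS2* did not pass. *CTPS1*, which makes CTP from UTP, fell most (−1.27 ± 0.05) and also fell in knockout cells (−0.43 ± 0.05), together with *DHODH* (−0.27 ± 0.07) and *UMPS* (−0.21 ± 0.06). *CAD*, the enzyme of the first steps, changed in opposite directions, −0.29 ± 0.06 in sgControl and 0.32 ± 0.06 in knockout cells. The responses of all 4 differed between genotypes (0.23 ± 0.09 for *UMPS* to 0.84 ± 0.07 for *CTPS1*).

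In the folate and thymidylate cycle, which carries the methyl group used by *TYMS*, 7 of 10 genes fell in sgControl cells. *MTHFD1L*, the mitochondrial formate enzyme, fell by 1.88 ± 0.08 on the log2 scale, and *FPGS* rose by 0.24 ± 0.06. In knockout cells *MTHFD1L*, *MTHFD1* and *FPGS* fell by 0.18 to 0.49, and *SHMT1* rose by 0.23 ± 0.06. The responses of 7 genes were higher in knockout cells, among them *MTHFD1L* (1.40 ± 0.11), and that of *FPGS* was lower.

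Among 13 salvage genes 7 fell in sgControl cells, led by *UCK2* (−1.49 ± 0.06), a uridine-cytidine kinase, and *UPP1* (−1.45 ± 0.22), a uridine phosphorylase. *TK2*, the mitochondrial thymidine kinase, rose by 0.89 ± 0.09 where its cytosolic counterpart *TK1* fell, and *UCK1* (0.50 ± 0.07) and *DCTD* (0.17 ± 0.06) rose as well. In knockout cells *TK2* fell (−0.46 ± 0.09), as did *UCK2*, *TYMP* and *ADA*, and *UPP1* (0.68 ± 0.21) and *ADK* (0.20 ± 0.08) rose. The interaction of *TK2* was −1.35 ± 0.13, opposite in sign to that of *TK1*. It was also negative for *UCK1* and positive for *UPP1*, *PNP*, *UCK2*, *HPRT1* and *ADK*.

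Of 7 nucleotide kinases, *DTYMK*, which turns the dTMP of *TYMS* and *TK1* into dTDP, fell by 1.71 ± 0.10 in sgControl cells and was at −0.18 ± 0.10 in knockout cells (adjusted p = 0.155). *NME2* fell by 0.56 ± 0.10, and *GUK1* rose by 0.30 ± 0.10. *CMPK2* had 3, 6 and 17 raw counts in untreated sgControl cells and 0 in all 3 treated libraries, which against a floor of 3 counts per library is at least 2.22-fold lower. In knockout cells it rose, from 29, 40 and 44 to 77, 78 and 92 raw counts (0.97 ± 0.30, adjusted p = 0.00695), as did *CMPK1* (0.15 ± 0.06). The median of the list in sgControl cells was −0.33, and also with *CMPK2* at its bound. The responses of *DTYMK*, *NME2* and *CMPK2* to the drug differed between genotypes.

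Of 8 further hydrolases and nucleotidases, 6 fell in sgControl cells, by 0.28 ± 0.09 (*ITPA*) to 0.74 ± 0.07 (*NT5C3A*). In knockout cells *NUDT1*, which clears oxidised nucleotides, fell by 0.47 ± 0.09 beside a fall of 0.43 ± 0.09 in sgControl cells, and *NT5M* (0.82 ± 0.13) and *NT5C2* (0.21 ± 0.08) rose. The responses of *NT5M*, *NT5C3A* and *NT5C* differed between genotypes. Of the 4 equilibrative nucleoside transporters, *SLC29A3* (0.76 ± 0.12) and *SLC29A4* (0.75 ± 0.09) rose and *SLC29A1* and *SLC29A2* fell in sgControl cells. In knockout cells *SLC29A3* (−0.91 ± 0.14) and *SLC29A4* (−0.33 ± 0.10) fell, and the responses of all 4 differed between genotypes.

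**Figure D4:**
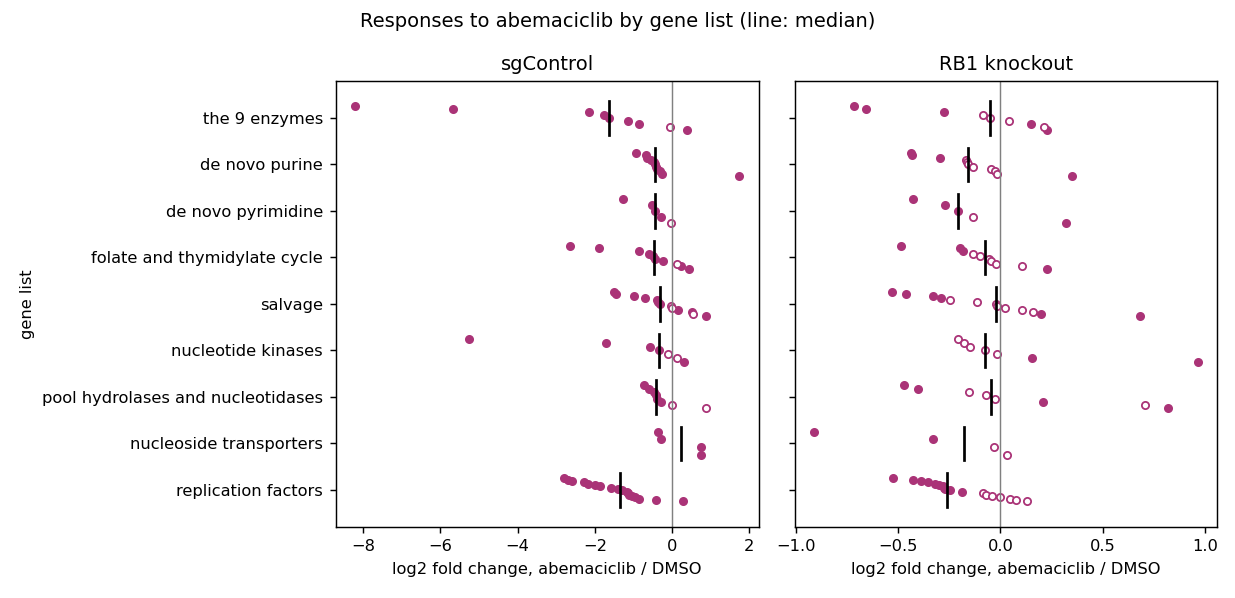
Log2 fold changes in abemaciclib against DMSO for each gene (points) and the median (line) of the 9 enzymes, 7 nucleotide supply lists and 18 replication factors, in sgControl and *RB1*-knockout cells (the x axes have different ranges); filled points passed an adjusted p-value under 0.05. The 9 enzymes and the replication factors have medians of −1.63 and −1.34 in sgControl cells, and the 7 lists have medians between −0.47 and 0.23.

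Genes known to regulate the enzymes were read as a list of 10. In sgControl cells 8 fell, led by *CCNA2* (cyclin A2, −5.08 ± 0.07), *E2F2* (−4.17 ± 0.08) and *CDK1* (−3.90 ± 0.07). *CCNF*, the F-box protein that directs RRM2 protein to degradation, fell by 2.17 ± 0.06, and *E2F1* by 0.99 ± 0.06. *E2F3* rose by 0.66 ± 0.06 and *FZR1* did not pass. In knockout cells *E2F2*, *CCNA2* and *CCNF* fell by 0.27 to 0.39, and *CCNE1*, *E2F3* and *CDK2* rose by 0.20 to 0.30.

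Replication and mitosis genes gave the proliferative background. Of 18 replication factors, 17 fell in sgControl cells (median −1.34, *PCNA* lowest at −2.81 ± 0.07) and *GINS4* rose. In knockout cells 11 fell (median −0.26). All 14 mitosis genes fell in sgControl cells (median −2.51, *AURKB* lowest at −6.10 ± 0.16), and in knockout cells 5 fell and *CENPF* rose (median −0.03). Treated sgControl libraries thus had less RNA of S phase and mitosis genes, and the part of that shift in the levels of the 9 enzymes was not tested.

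*SAMHD1* and *CMPK2* are known to be inducible by interferon, and 10 other interferon-stimulated genes were read beside them. In untreated cells 6 of the 9 that could be tested were higher in the knockout (*IFIT2*, *IFI27*, *OAS1*, *ISG15*, *MX1* and *OAS2*) and none was lower. In abemaciclib 8 of 10 were higher in the knockout and *OAS2* was lower (−1.18 ± 0.13). Several calls in both treatments rest on few reads. In treated cells *IFI44L* had 0 raw counts in each sgControl library and 5, 1 and 10 in the knockout. *IFIT3* had 0, 2 and 3 against 14, 6 and 22 there, and *OAS1*, with more reads, 74 to 89 against 292 to 345. In untreated sgControl libraries *IFIT2* had 7, 5 and 10 raw counts and *IFI27* had 13, 5 and 9. Under the drug *OAS2*, *IFIT2* and *OAS1* were among those that rose in sgControl cells and *IFIT1* fell, and in knockout cells 7 of 9 rose. *SAMHD1* was higher in the knockout in both treatments, and its relation to these genes was not tested.

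The genes whose pattern over the 12 libraries was most like that of each enzyme were named by Pearson correlation of log2 normalized counts, as a description. *RRM2* was nearest to *ARHGEF39* (r = 0.9991), the mitotic kinase gene *AURKB* (0.999) and *DTL* (0.9987), and *TYMS* to *GPSM2* (0.9993), *KIF2C* (0.999) and *CTNNAL1* (0.9989). *RRM1* was nearest to *MCUB* (0.9996), *AIF1L* (0.9986) and *CDKN2A* (0.9986). *TK1* was nearest to *SRSF7*, *RAD51C* and *RBM23* (0.9951 to 0.9961), and *DUT* to *HMGB1*, *UBE2T* and *RAN* (0.9948 to 0.9953). *DCK* was nearest to *RFC4*, *HADH* and *C1orf112* (0.9837 to 0.986).

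The remaining 3 enzymes had other neighbours in pattern. *SAMHD1* was nearest to a row named *DGCR5*, a symbol that more than 1 row carries, and to *LAMB1* and *RHBDL3* (0.9955 to 0.9965). *RRM2B* was nearest to *ZNF346* (0.9597), *FGD6* and *CCDC183-AS1*, and *DCTPP1* to *ABCF2* (0.9683) and *STYXL1*. Among the enzymes themselves *RRM1*, *RRM2* and *TYMS* correlated at 0.98 to 0.99, and *RRM2B* with the others at −0.49 to 0.12. The 12 points are 4 groups of 3 libraries that share genotype and treatment within a group. The choice of genes depended on the measure: by rank correlation *RRM2B* kept 2 of its 3, *DCTPP1* kept 1, and each of *RRM1*, *RRM2*, *TK1*, *TYMS*, *DCK*, *DUT* and *SAMHD1* kept 0.

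Copies of these genes elsewhere in the genome can share reads with them. Of 13 rows named as copies of the 9 enzymes, 11 had no count in any library, and the highest count of any was 5. How reads that map to several places were counted is not given, so these counts cannot show whether reads were shared.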

How the data were processed

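RNA-seq values are raw counts per gene that the authors deposited as a single table of 12 samples, made by trimming with BBDuk, alignment to hg38 with STAR 2.7.5b and counting with featureCounts 2.0.1 against GENCODE (tools per the labels and the study's methods). Strand and multi-mapping settings are not given in the sources used here. Of 60656 rows, 44 without a symbol were left out (0.0% of the counts), and 28342 of the 60612 used had no count. The titles of the samples gave the groups and replicate numbers.

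One DESeq2 1.42.0 model (R 4.3.3) used the group as its only term and covered all 12 samples and all rows with a count, with median-of-ratios size factors and no shrinkage. P-values of two-sided Wald tests for 5 contrasts were adjusted by Benjamini–Hochberg over the genes left by independent filtering, with calls at an adjusted p-value under 0.05. All p-values are DESeq2's unless edgeR is named. Alternatives were the edgeR 4.0.16 quasi-likelihood test, TMM and total-count factors, a filter of 10 counts in 3 samples, fitting the compared groups only, the replicate number as a block, and leaving out each library. The fit with both the compared groups and the block was chosen after seeing the data. Tests were checked on simulated data.

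What libraries with the same replicate number share is not given. In abemaciclib, same-numbered sgControl and knockout libraries deviated together from their group means (correlations 0.15, 0.26 and 0.11), so the numbers were taken to pair them there. In the other comparisons not every pair exceeded 0.1.

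The 9 enzymes and all lists were chosen with earlier results of these data known. Named were the 9 enzymes, *RB1*, the 3 nearest genes of each enzyme (Pearson correlation of log2 of the normalized count plus 1, mean of at least 100), and from each list the called genes with the largest changes and those behind counts of 5 or fewer. Some genes that this rule selects are not reported here. Positions and lengths are from GENCODE release 44 on GRCh38, and promoter sequences from RefSeq (8 of 9 enzymes matched).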

Additional observations from a re-analysis of the deposited data

Results flagged for a closer look

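For 8 of the 9 enzymes the response to abemaciclib differed between the genotypes by the test of the difference itself (DESeq2 interaction, knockout response minus sgControl response, log2 scale). It was 7.55 for *RRM2*, 5.82 for *TYMS*, 1.67 for both *RRM1* and *DUT*, 1.43 for *TK1*, 1.36 for *DCK* and 1.09 for *SAMHD1*, each with all 3 treated sgControl libraries below all 3 untreated ones. For *RRM2B* it was −0.42, with the 3 treated sgControl libraries above the untreated ones. The same test called 21.0% of 21008 genes higher and 20.2% lower. How many of all genes had sgControl libraries separated in this way was not counted.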

How the results depend on the processing

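None of the 45 log2 fold changes (9 enzymes in 5 contrasts) changed its direction while called. Across the alternatives other than leaving out a library, 264 of 270 values kept their side of the threshold, and 528 of 540 did so when each library was left out; the exceptions stand beside the results above. The edgeR test, TMM factors, the low-count filter and the replicate block changed no call of an enzyme. With the replicate block 8 enzymes were called in sgControl, as without it, and 11754 genes in abemaciclib between genotypes against 12002 without it. Fitting only those 2 groups together with the block gave 11355 genes and 8 enzymes. The numbers were not shown to pair the other comparisons. Total-count factors moved the median gene by −0.132 in sgControl, 0.137 in the interaction and 0.114 between genotypes in abemaciclib, with higher and lower calls of 4529 and 6774, 5466 and 3099, and 6990 and 4819 in that order. Median-of-ratios factors gave 5657 and 5615, 4415 and 4250, and 6117 and 5885. Small changes are therefore relative to the median gene. With 35 to 44 raw counts per treated sgControl library, the depth of the *RRM2* fall rests on few reads.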

Other observations

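The 9 enzymes lie on 9 different chromosomes, none of them chromosome 13, which carries *RB1*. To see whether a whole region differed between the genotypes in DMSO, other genes within 10 Mb of each enzyme with a mean of at least 100 normalized counts were read. Their median log2 fold change lay between −0.15, around *DCK* (35 genes, interquartile range −0.25 to 0.07, against −0.42 for *DCK*), and 0.04. Around *RRM2* it was 0.03 (43 genes) and around *SAMHD1* 0.0 (122 genes), where the enzymes stood at −0.39 and 0.57. Within 5 Mb the median was −0.19 around *DCK* (19 genes) and −0.16 around *TYMS* (13 genes), the latter beside −0.15 for *TYMS* itself. Whether copy number differs between the lines was not tested.

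In abemaciclib the genes within 10 Mb of *TYMS* had a median of 0.66 between genotypes (25 genes, interquartile range 0.2 to 1.16), the highest of the 9 neighbourhoods, beside 5.68 for *TYMS*. The median of the same 25 genes was −0.07 between genotypes in DMSO. It was −0.57 for abemaciclib against DMSO in sgControl cells.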
